A study of Mus musculus with 12 samples.

Results

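The genes described here are the chains of MHC class II and the genes that load it with peptide: H2-Aa, H2-Ab1, H2-Eb1, Cd74, H2-DMa, H2-DMb1, H2-DMb2, H2-Oa, H2-Ob and Ciita. They were measured in lineage-depleted bone marrow, 1 array per mouse, on 6 arrays of E4bp4-/- marrow and 6 arrays of E4bp4+/+ marrow. E4bp4 is the protein of Nfil3, a bZIP transcription factor, and the series set out to find genes that it regulates in bone marrow. Marrow was crushed out of the hind legs and, in both genotypes, magnets took out cells with the T and NK cell antigens CD2 and NK1.1, the B cell antigen B220, the myeloid antigens CD11b and GR1 or the erythroid antigen Ter119, so the RNA comes from what the depletion left. Strain, age, sex and the design of the deleted allele are not given in the sources used here. Of the 10 genes, 8 had a transcript cluster (the array's probe group for a gene) annotated to them alone, out of 19937 genes with such a cluster. H2-DMb1 and H2-DMb2 are near-identical copies that share 1 transcript cluster, so their levels could not be told apart. The genes were picked by name, with earlier results of the same comparison known, so the differences between genotypes below are descriptions and support nothing further.

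MHC class II molecules present peptides from endosomes to CD4 T cells and mark professional antigen-presenting cells such as dendritic cells, B cells and macrophages. An α chain and a β chain pair in the endoplasmic reticulum, where the invariant chain Cd74 occupies their groove; proteases later trim the invariant chain to a fragment called CLIP. H2-DM exchanges CLIP for peptide, H2-O restrains H2-DM, and transcription of the set needs Ciita, a coactivator that binds no DNA itself and is held at the promoters by RFX, CREB and NF-Y proteins on the X and Y boxes.

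The promoter sequences are shown because Y and X boxes are what these genes are known to share. The RefSeq promoter table of assembly GRCm38.p6 (250 bases before to 50 after a start) matched 7 of the 10 genes by symbol, and H2-Ab1, Cd74 and Ciita are not shown. Each line gives 70 bases, 5′ to 3′ on the gene's strand, with the Y box core GATTGG and, where present, the X box core AGCAAC in capitals.
H2-Aa: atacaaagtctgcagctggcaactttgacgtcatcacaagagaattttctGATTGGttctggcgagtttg
H2-Eb1: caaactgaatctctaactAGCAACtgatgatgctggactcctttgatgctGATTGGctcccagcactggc
H2-Oa: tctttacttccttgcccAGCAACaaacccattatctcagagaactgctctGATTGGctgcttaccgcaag
H2-Ob: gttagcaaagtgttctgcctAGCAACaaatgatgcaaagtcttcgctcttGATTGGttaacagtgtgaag
H2-DMb1: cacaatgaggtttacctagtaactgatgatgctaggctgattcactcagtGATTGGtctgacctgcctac
H2-DMb2: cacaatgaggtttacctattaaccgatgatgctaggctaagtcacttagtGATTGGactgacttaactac
H2-DMa: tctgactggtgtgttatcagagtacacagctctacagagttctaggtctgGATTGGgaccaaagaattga

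The window of H2-Aa lies at chr17:34287853-34287922 on the minus strand and that of H2-Eb1 at chr17:34305757-34305826 on the plus strand, each ahead of the annotated start of its gene. Those of H2-Oa (chr17:34092285-34092354), H2-Ob (chr17:34238797-34238866), H2-DMb1 (chr17:34153079-34153148), H2-DMb2 (chr17:34145108-34145177) and H2-DMa (chr17:34125269-34125338) are on the plus strand. The longer Y box letters CTGATTGG were found in H2-Aa, H2-Eb1 and H2-Oa, on either strand of 4.10% of the 32851 promoters in the table. The core GATTGG, which lies inside CTGATTGG, was in all 7 genes and in 16.1% of promoters. It began 49 bases before the start in H2-Aa, 60 in H2-Eb1, 44 in H2-Oa, 58 in H2-Ob, 62 in H2-DMb1 and 91 in H2-DMb2. In H2-DMa it was 199 bases before one of its 2 annotated starts and absent from the window of the other. AGCAAC was in H2-Eb1, H2-Oa and H2-Ob and in 14.8% of promoters. The longer X box letters AGCAACAG (2.26% of promoters) were in none of the 7 genes, and neither were the E4bp4 site letters TTANGTAA (2.32%). The short cores were searched after the promoters had been read, so their matches are descriptions of these letters, not of bound sites. Genes with the core included H2-Aa and H2-Eb1, whose levels were lower in E4bp4-/- marrow, and H2-Oa and H2-Ob, whose means were close in the 2 genotypes.

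Levels are the authors' normalised log2 values. Over all 12 arrays the array medians ranged from 6.50 to 6.62 and the 20th percentile, used here as a guide to weak signal, from 4.93 to 4.99; all 8 genes were above it on every array. Nfil3, the targeted gene, averaged 6.49 ± 0.23 in E4bp4-/- and 7.18 ± 0.25 in E4bp4+/+ marrow (SD, n = 6 each), with no overlap. E4bp4-/- replicate 1 stood apart from the other 11 arrays. It had 6.08 for Xist where the other arrays had 12.10 to 12.65, its Y-linked Eif2s3y was 7.37, and its neutrophil granule gene Ngp was 12.01, the highest of the 12. Where leaving out that array turned a direction or moved a difference or correlation by over 1.5 times, the value without it is given beside the result.

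The 4 genes that make up the class II complex before peptide loading, H2-Aa, H2-Ab1, H2-Eb1 and Cd74, had lower means in E4bp4-/- than in E4bp4+/+ marrow, by 0.43 to 1.34 on the log2 scale. The 4 genes of the loading step and its control, H2-DMa, H2-Oa, H2-Ob and Ciita, differed by 0.0066 to 0.11, with signs that turned under other settings for H2-Oa, H2-Ob and Ciita. The median difference, E4bp4-/- minus E4bp4+/+, was -0.52 for the first 4 and -0.21 for all 8, beside 0.015 over all 29541 transcript clusters tested. For the other 4 it was 0.020, with differences that ran from -0.079 to 0.035 without E4bp4-/- replicate 1. None of the 8 passed an adjusted p of 0.05 in limma with Benjamini-Hochberg adjustment over the whole table, and neither did any other transcript cluster: 0 of 29541, or 0%. The smallest adjusted p of the table was 0.109. At an unadjusted p of 0.05, 3 of the 8 genes were lower and 0 higher, where 6.39% of all transcript clusters were lower. Every E4bp4-/- array lay below every E4bp4+/+ array for 1 of the 8, H2-Eb1, and for 0.65% of all transcript clusters. These shares are printed as background and nothing is read from them, since the same comparison was in view when the genes were chosen.

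H2-Aa, the α chain of I-A, had the widest difference of the set. Its log2 level had a lowest value of 5.51, a median of 5.97 and a highest of 7.46 in E4bp4-/- marrow, against 7.33, 7.60 and 8.15 in E4bp4+/+ marrow. E4bp4-/- replicates 3 to 6, at 5.80, 5.51, 6.11 and 5.83, were below every E4bp4+/+ array. Replicates 1 and 2, at 7.35 and 7.46, lay among the lowest E4bp4+/+ arrays, so the genotypes overlapped. Means were 6.34 ± 0.85 in E4bp4-/- and 7.68 ± 0.34 in E4bp4+/+ marrow (SD, n = 6 each). The difference was -1.34 (SE 0.34, 95% interval -2.07 to -0.61), a level 0.395 times that of E4bp4+/+, with a limma adjusted p of 0.173. Without E4bp4-/- replicate 1 it was -1.54 (SE 0.31, adjusted p = 0.174). Over all transcript clusters tested, 2 had a more negative difference, Trgv1, a T cell receptor γ variable segment, at -1.34 (adjusted p = 0.109) and 1 with no gene annotated at -1.41 (adjusted p = 0.294); both were singled out after their values were seen.

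H2-Ab1, the β chain that pairs with H2-Aa, followed the same arrays over a smaller range. It had a lowest log2 level of 7.72, a median of 7.84 and a highest of 8.57 in E4bp4-/- marrow, against 8.35, 8.59 and 8.96 in E4bp4+/+ marrow. Again E4bp4-/- replicates 3 to 6 were below every E4bp4+/+ array, while replicates 1 and 2, at 8.57 and 8.48, fell inside the E4bp4+/+ range. The difference was -0.55 (SE 0.16, 95% interval -0.91 to -0.20), 0.682 times the E4bp4+/+ level, with a limma adjusted p of 0.205; without E4bp4-/- replicate 1 it was -0.66.

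H2-Eb1, the β chain of I-E, was the gene whose genotypes did not overlap. Its log2 level had a lowest value of 7.10, a median of 7.28 and a highest of 7.56 in E4bp4-/- marrow, against 7.64, 7.75 and 7.90 in E4bp4+/+ marrow. Replicates 1 and 2, both at 7.56, were once more the highest E4bp4-/- arrays, and the gap to the lowest E4bp4+/+ array was small. The difference was -0.43 (SE 0.085, 95% interval -0.62 to -0.25), 0.740 times the E4bp4+/+ level, with a limma adjusted p of 0.140; without E4bp4-/- replicate 1 it was -0.48.

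Cd74, the invariant chain, was the most spread of the 4 relative to its difference. Its lowest, median and highest log2 levels were 7.43, 8.08 and 9.0 in E4bp4-/- marrow, against 8.31, 8.54 and 9.05 in E4bp4+/+ marrow. E4bp4-/- replicates 3, 4 and 6, at 7.43, 7.47 and 7.75, were below every E4bp4+/+ array. Replicate 5, which was low for H2-Aa and H2-Ab1, had 8.43 for Cd74, inside the E4bp4+/+ range. The difference was -0.50 (SE 0.25, 95% interval -1.05 to 0.05) with a limma adjusted p of 0.378; without E4bp4-/- replicate 1 it was -0.68 (adjusted p = 0.245).

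**Figure D1:**
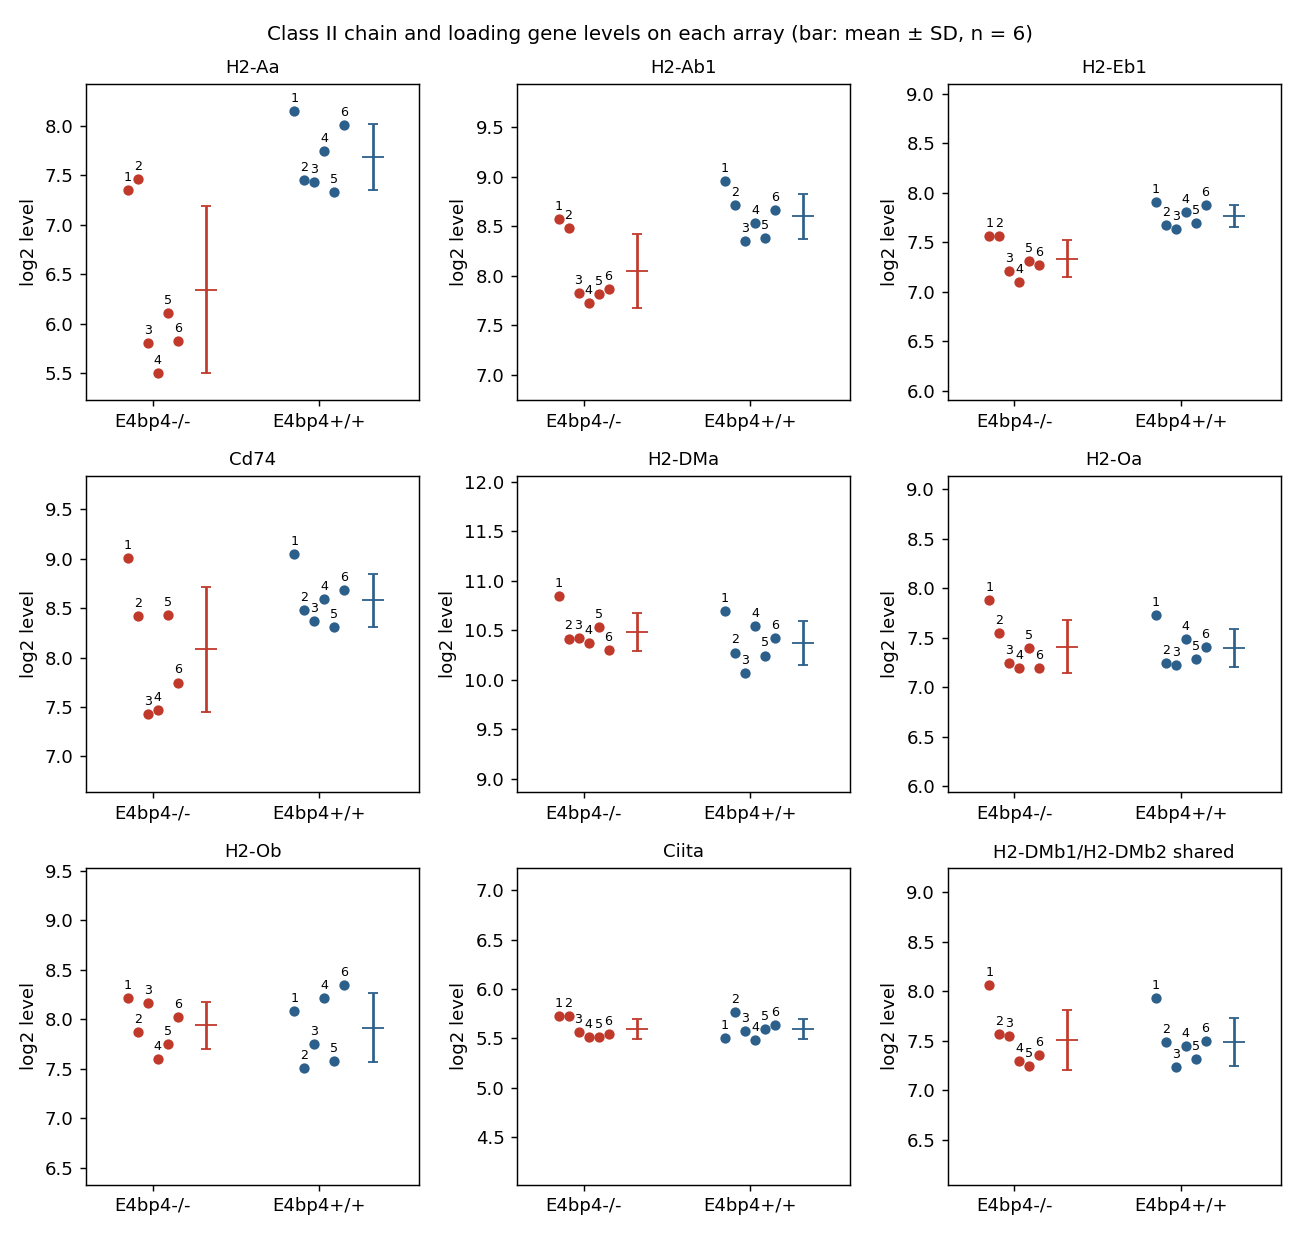
Log2 level (vertical axis, the same span in every panel) of each class II chain and loading gene on each array, E4bp4-/- left and E4bp4+/+ right, numbered by replicate, with mean ± SD (n = 6 each). H2-Aa has 4 E4bp4-/- arrays at 5.51 to 6.11 below the E4bp4+/+ arrays at 7.33 to 8.15, while H2-DMa, H2-Oa, H2-Ob and Ciita overlap.

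The peptide exchange genes did not share this pattern. H2-DMa, the α chain of H2-DM, had a lowest log2 level of 10.30, a median of 10.42 and a highest of 10.85 in E4bp4-/- marrow, against 10.07, 10.35 and 10.69 in E4bp4+/+ marrow. The ranges overlapped for most of their length, with E4bp4-/- replicate 1 highest and E4bp4+/+ replicate 3 lowest. The difference was 0.11 (SE 0.11, 95% interval -0.13 to 0.35, limma adjusted p = 0.672), and 0.035 without E4bp4-/- replicate 1. The transcript cluster shared by H2-DMb1 and H2-DMb2, the β chains of H2-DM, ranged from 7.24 to 8.06 in E4bp4-/- and from 7.23 to 7.93 in E4bp4+/+ marrow, a difference of 0.03 (SE 0.14, 95% interval -0.29 to 0.34) that was -0.085 without E4bp4-/- replicate 1. That value belongs to neither gene alone.

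H2-Oa and H2-Ob, the chains of H2-O, also overlapped between genotypes. H2-Oa ranged from 7.19 to 7.88 (median 7.32) in E4bp4-/- and from 7.23 to 7.73 (median 7.34) in E4bp4+/+ marrow, with replicate 1 the highest array of each genotype. Its difference was 0.016 (95% interval -0.25 to 0.29, limma adjusted p = 0.966). H2-Ob ranged from 7.60 to 8.21 (median 7.94) in E4bp4-/- and from 7.51 to 8.35 (median 7.91) in E4bp4+/+ marrow, a difference of 0.024 (95% interval -0.32 to 0.37, adjusted p = 0.960). Without E4bp4-/- replicate 1 both differences turned negative, to -0.079 for H2-Oa and -0.031 for H2-Ob, and they turned under other settings too.

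Ciita, the coactivator that class II transcription depends on, had a narrow range in both genotypes. It ranged from 5.52 to 5.73 (median 5.55) in E4bp4-/- and from 5.48 to 5.76 (median 5.59) in E4bp4+/+ marrow, nearly the same span. All of these levels were under the lowest array median, 6.50, so the range is that of a low signal. The difference was 0.0066 (SE 0.059, 95% interval -0.12 to 0.13, limma adjusted p = 0.970), and -0.018 without E4bp4-/- replicate 1.

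**Figure D2:**
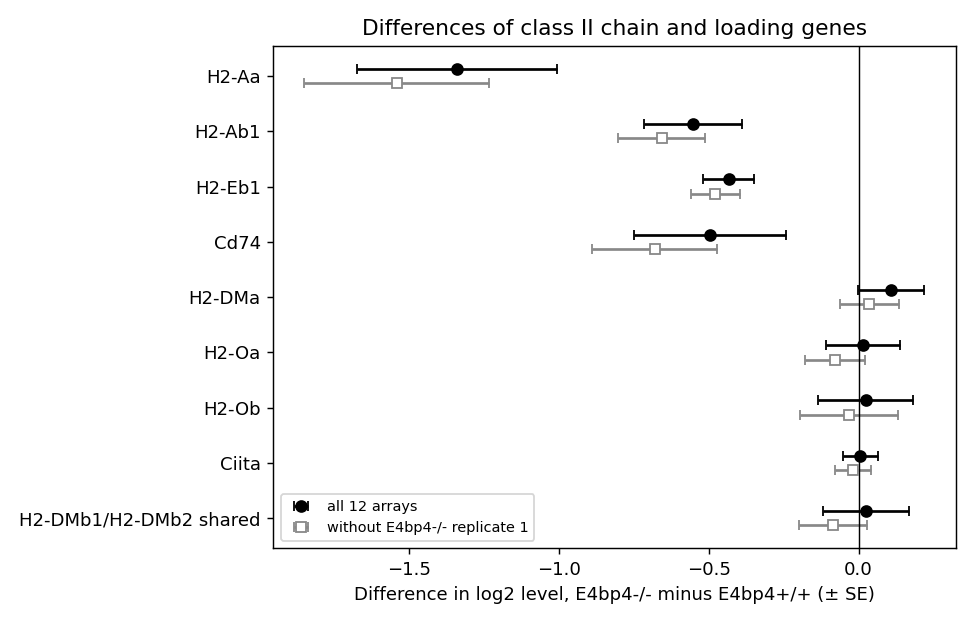
Difference in log2 level, E4bp4-/- minus E4bp4+/+ (horizontal axis), for each gene with its SE, from all 12 arrays (filled) and without E4bp4-/- replicate 1 (open). H2-Aa, H2-Ab1, H2-Eb1 and Cd74 lie at -1.34 to -0.43 and the others within 0.11 of 0.

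Setting each gene against H2-DMa on the same array gave a view that was added after the values were seen. H2-Aa minus H2-DMa ran from -4.87 to -2.95 log2 units in E4bp4-/- and from -2.92 to -2.42 in E4bp4+/+ marrow, without overlap. H2-Eb1 minus H2-DMa ran from -3.29 to -2.85 in E4bp4-/- and from -2.79 to -2.44 in E4bp4+/+ marrow, also without overlap. The share of all transcript clusters that separate on this scale was not computed, so nothing is read from these gaps. The mean of H2-DMa was itself 0.11 higher in E4bp4-/- marrow, which adds to them. On this scale E4bp4-/- replicate 1, at -3.50 for H2-Aa, was below every E4bp4+/+ array, and so was replicate 2 at -2.95, by a small margin. H2-Ab1 and Cd74 still overlapped, with E4bp4-/- ranges of -2.72 to -1.94 and -3.00 to -1.85, against -2.01 to -1.56 and -1.95 to -1.65 in E4bp4+/+ marrow. Within each gene these are differences between 2 probe groups, so only their change from array to array can be compared.

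The next question was whether the genes varied together from mouse to mouse. For the chain genes and Cd74 the 12 arrays did not form 1 cloud, because 3 or 4 E4bp4-/- arrays stood apart from the rest. A permutation test pooled over the 12 arrays was run, and 8 of 28 pairs passed by Pearson r after adjustment. Nothing is read from it, since a pooled correlation also holds the gap between those arrays and the rest. The 6 E4bp4-/- arrays themselves split into 4 and 2 for H2-Aa, and their correlations are given as descriptions with no p. The 6 E4bp4+/+ arrays allowed an exact two-sided permutation test of each of 28 pairs.

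Within E4bp4-/- marrow the 6 pairs among H2-Aa, H2-Ab1, H2-Eb1 and Cd74 had Pearson r of 0.81 to 0.98, against 0.71 to 0.96 within E4bp4+/+ marrow. Without replicate 1 the E4bp4-/- range was 0.62 to 0.98. Some of these values rested on the 2 arrays farthest from the median of the first gene named. Without them, r for H2-Aa and H2-Ab1 in E4bp4+/+ marrow was 0.30 in place of 0.76, and that for H2-Ab1 and H2-Eb1 was 0.21 in place of 0.71. In E4bp4-/- marrow r for H2-Ab1 and Cd74 was then 0.30 in place of 0.81, and that for H2-Aa and H2-Ab1 was 0.66 in place of 0.98. In E4bp4+/+ marrow H2-Aa and Cd74 had r = 0.94 (exact permutation p = 0.00139, adjusted over the 28 pairs 0.0389) and rho = 1.00 (p = 0.00278, adjusted 0.0778, n = 6), and r was 0.92 without replicates 1 and 6, the farthest for H2-Aa. In E4bp4-/- marrow the same pair had r = 0.85 and rho = 0.77. The I-A and I-E chains H2-Aa and H2-Eb1 had r = 0.98 and rho = 1.00 in E4bp4-/- marrow, where r was 0.95 without replicates 1 and 2. In E4bp4+/+ marrow they had r = 0.96 (exact permutation p = 0.00972, adjusted 0.0583) and rho = 0.83 (p = 0.0583, adjusted 0.204, n = 6), and r was 0.85 without replicates 1 and 6.

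The loading genes H2-DMa and H2-Oa had r = 0.90 in E4bp4-/- and 0.95 in E4bp4+/+ marrow. With H2-Aa and Cd74, this was 1 of the 2 pairs that passed after adjustment by Pearson r in E4bp4+/+ marrow (exact permutation p = 0.00278, adjusted 0.0389). In E4bp4+/+ marrow rho was 0.94 (p = 0.0167, adjusted 0.156) and r was 0.97 without replicates 1 and 3; in E4bp4-/- marrow r was 0.55 without replicate 1 and 0.35 without replicates 1 and 6. By Spearman's rho 0 of the 28 pairs passed after adjustment and 6 had an unadjusted exact permutation p under 0.05. With 6 arrays the smallest exact permutation p for rho is 0.00278, which adjusted to 0.0778, so no single pair could pass on its own. H2-DMa and H2-Aa had r = 0.61 in E4bp4-/- marrow, which was 0.22 without replicate 1 and 0.64 without replicates 1 and 2. In E4bp4+/+ marrow they had r = 0.85, which was 0.82 without replicates 1 and 6. H2-DMa and H2-Ab1 had r = 0.64 in E4bp4-/- marrow, which was 0.03 without replicate 1. In E4bp4+/+ marrow this pair had r = 0.78, which was 0.13 without replicates 1 and 3. The 16 pairs of a chain gene with a loading or control gene had a median r of 0.76 in E4bp4-/- marrow, or 0.53 without replicate 1, and of 0.81 in E4bp4+/+ marrow. In E4bp4+/+ marrow 0 of these 16 pairs passed after adjustment (smallest exact permutation p adjusted over the 28 pairs 0.0583).

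Ciita did not keep the sign of its r with H2-Aa in both genotypes. Its r with H2-Aa was 0.96 in E4bp4-/- and -0.42 in E4bp4+/+ marrow, and its r with H2-Ab1 was 0.98 in E4bp4-/- and 0.02 in E4bp4+/+ marrow. The E4bp4-/- value for H2-Aa rested on replicates 1 and 2, where Ciita was 5.72 and 5.73 against 5.52 to 5.56 on the other 4 arrays: without them its r was 0.05 with H2-Aa and 0.59 with H2-Ab1. In E4bp4+/+ marrow its r with H2-Aa was -0.55 without replicates 1 and 6, and its r with H2-Ab1 was 0.63 without replicates 1 and 3. With those arrays left out, the r with H2-Ab1 was thus close in the 2 genotypes. The difference between genotypes in r was not tested. H2-Ob was the least tied to the chain genes in E4bp4-/- marrow, with r of 0.25 to 0.44, or -0.25 to 0.14 without replicate 1, against 0.33 to 0.84 in E4bp4+/+ marrow.

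**Figure D3:**
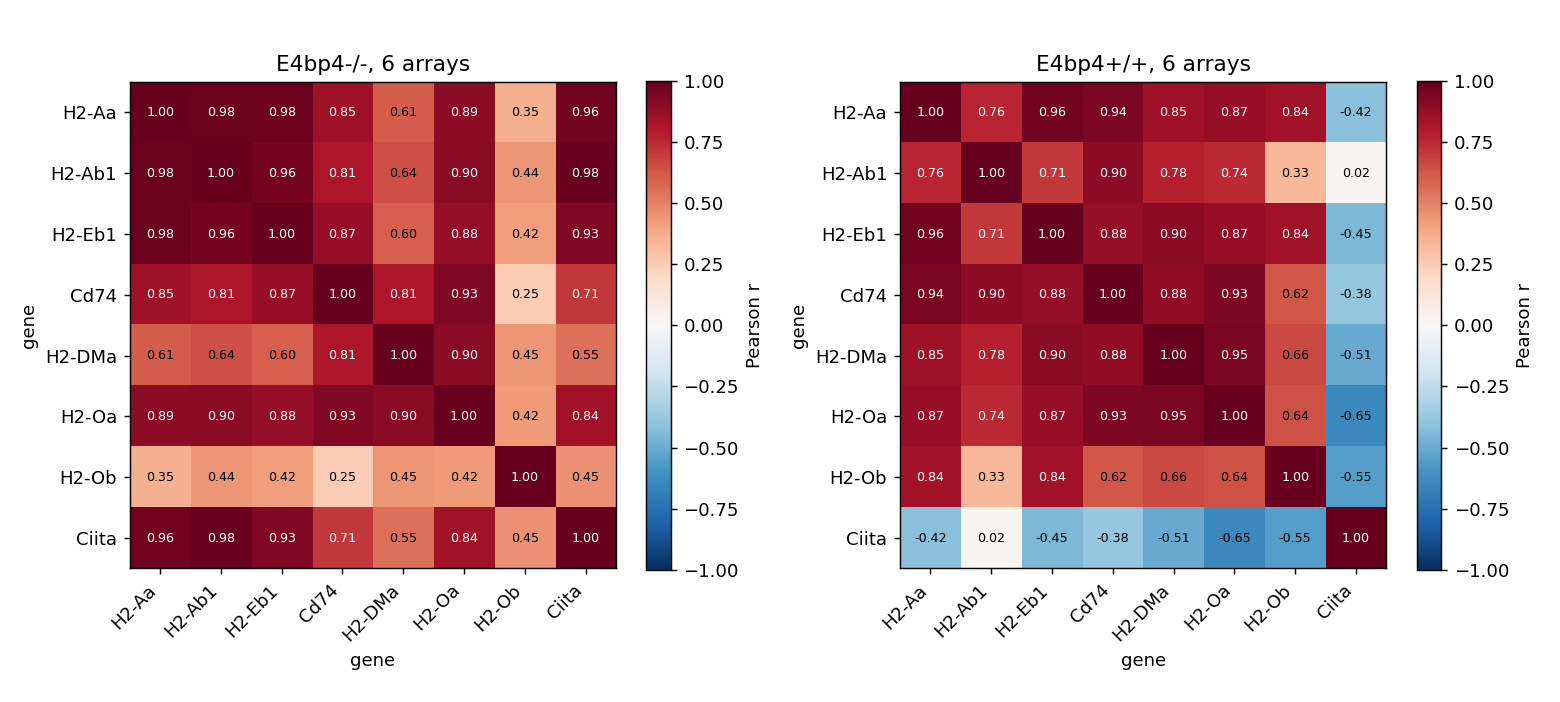
Pearson r between each pair of 8 class II chain and loading genes (both axes, genes) over the 6 E4bp4-/- arrays (left) and the 6 E4bp4+/+ arrays (right), from blue at -1 to red at 1. Pairs among H2-Aa, H2-Ab1, H2-Eb1 and Cd74 are at 0.81 to 0.98 on the left and 0.71 to 0.96 on the right, and Ciita with H2-Aa is 0.96 on the left and -0.42 on the right.

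Among 17799 other genes, those most like the mean centred level of H2-Aa, H2-Ab1, H2-Eb1 and Cd74 were found by Pearson r over 12 arrays, as a description with no p. With genotype means removed they were Nucb1, a Golgi calcium-binding protein (r = 0.95), the class I-like gene H2-T10 (0.93), the platelet-activating factor receptor Ptafr (0.91), the translocon-associated Ssr4 (0.91) and Id2 (0.91). With genotype means kept they were Id2 (0.94), the interferon-inducible Ifi205 (0.93), the cytokinesis regulator Racgap1 (0.91), the cobalamin-pathway gene Mmadhc (0.90) and AY512915 (0.90). AY512915 was under the 20th percentile on 4 of 12 arrays. Id2, which encodes an inhibitor of E proteins needed by innate lymphoid cells and some dendritic cells, was in both sets. Its log2 level had a lowest value of 7.52, a median of 7.72 and a highest of 9.19 in E4bp4-/- marrow, against 8.50, 8.81 and 9.32 in E4bp4+/+ marrow. As for H2-Aa, E4bp4-/- replicates 1 and 2 were high, at 9.19 and 8.72, and replicates 3 to 6 were below every E4bp4+/+ array; the difference was -0.77 (SE 0.28, limma adjusted p = 0.255). Ifi205 ranged from 5.35 to 6.55 in E4bp4-/- and from 6.40 to 7.69 in E4bp4+/+ marrow, a difference of -1.09 (SE 0.26, adjusted p = 0.160). Besides Id2, the other 4 genes found with genotype means removed differed little between genotypes, by -0.02 to 0.16, or by -0.06 to 0.02 without E4bp4-/- replicate 1.

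**Figure D4:**
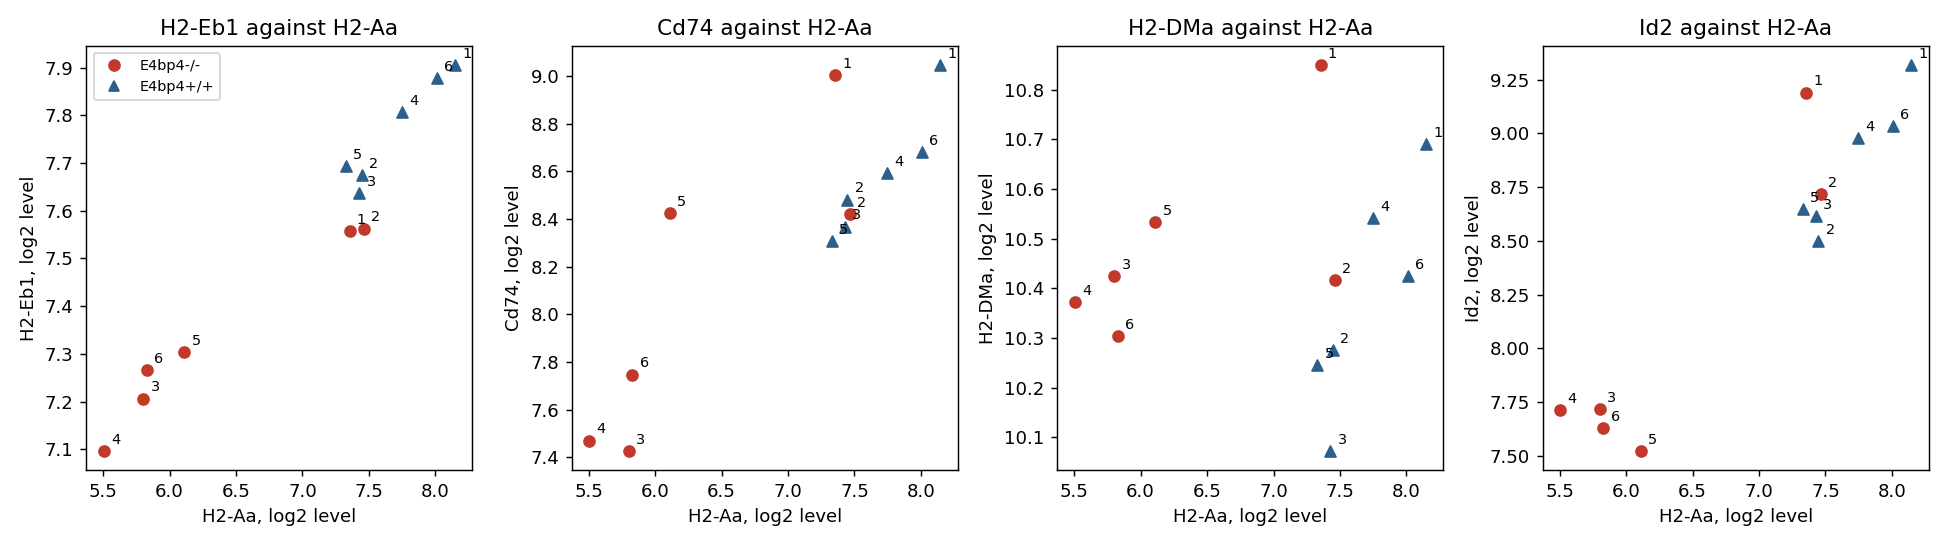
Log2 level of H2-Eb1, Cd74, H2-DMa and Id2 (vertical axes) against that of H2-Aa (horizontal axis) on each array, E4bp4-/- as circles and E4bp4+/+ as triangles, numbered by replicate. E4bp4-/- replicates 3 to 6 sit at H2-Aa levels of 5.51 to 6.11, and replicates 1 and 2, at 7.35 and 7.46, beside the E4bp4+/+ arrays.

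The proteins that read the Y and X boxes were measured as 7 genes (Rfx5, Rfxank, Rfxap, Nfya, Nfyb, Nfyc and Creb1). Differences were negative for 5 and positive for 2 (4 and 3 without E4bp4-/- replicate 1). Their median was -0.07 (-0.05 without that array), and 0 passed adjustment. The largest by p were Rfxap, a subunit of RFX, at -0.11 (limma adjusted p = 0.313), Nfyb at -0.10 (0.429) and Nfyc at -0.07 (0.434), the last 2 subunits of NF-Y. Nfyc had 2 transcript clusters whose differences had opposite signs.

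The endosomal proteases and the thiol reductase that prepare peptide and cut Cd74 were 7 genes with a median difference of 0.03 (-0.019 without E4bp4-/- replicate 1), 0 of them passing adjustment. Ctsl, cathepsin L, ranged from 8.85 to 10.04 in E4bp4-/- and from 8.78 to 9.14 in E4bp4+/+ marrow, a difference of 0.52 (limma adjusted p = 0.213). Ctss, cathepsin S, which trims the invariant chain in dendritic cells and B cells, differed by 0.34 (adjusted p = 0.587), which was 0.096 without E4bp4-/- replicate 1, and Ctsd by -0.07 (0.484). Genes of class II turnover, costimulation and recognition, 8 in all, had a median of 0.03 (0.0084 without E4bp4-/- replicate 1) with 0 passing. The 3 of lowest p were the CD4-like class II receptor Lag3 at 0.14, the ubiquitin ligase March8 at -0.09 and Cd4 at 0.07; without that array they were at 0.093, -0.021 and 0.047. Of 11 other genes of the class II region 9 were tested. They included Brd2 at -0.06, Ager at 0.08 and Rxrb at 0.06, and their differences ran from -0.06 to 0.08.

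Markers of cells that carry class II did not show one direction, and their part in the differences above was not tested. In bulk RNA, fewer cells of a type and less RNA per cell cannot be told apart. For conventional dendritic cells 14 of 14 markers were tested, 7 with negative and 7 with positive differences, with a median of 0.03. Without E4bp4-/- replicate 1, 8 were negative and 6 positive, with a median of -0.0072. Their mean level ranged from 6.94 to 7.44 in E4bp4-/- and from 6.99 to 7.40 in E4bp4+/+ marrow. Xcr1, a receptor of the cross-presenting type, differed by -0.19, Cd24a by -0.15 and the factor Irf4 by 0.28 (limma adjusted p = 0.333, 0.284 and 0.285). Of the defining markers, the factor Zbtb46 differed by 0.06 and Itgax, which encodes CD11c, by 0.18; without E4bp4-/- replicate 1 these were 0.13 and 0.11.

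For plasmacytoid dendritic cells 9 of 11 markers were tested, 8 of them with positive differences, with a median of 0.18 (0.11 without E4bp4-/- replicate 1) and mean levels of 7.55 to 8.07 in E4bp4-/- and 7.53 to 7.84 in E4bp4+/+ marrow. Ccr9, a homing receptor, was at -0.51 (limma adjusted p = 0.184), while Cox6a2 and Cd300c both differed by 0.23. For B cells 11 of 13 markers were tested, 9 with positive differences, with a median of 0.15 (0.089 without E4bp4-/- replicate 1, with 8 positive) and mean levels of 6.09 to 6.48 in E4bp4-/- and 6.06 to 6.27 in E4bp4+/+ marrow. Cd79a, part of the B cell receptor, differed by 0.33, the pre-B cell receptor gene Vpreb1 by 0.26 and the lineage factor Pax5 by 0.19. Ms4a1, which encodes CD20, was under the 20th percentile on 7 of 12 arrays and Fcer2a on 9.

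For monocytes and macrophages 13 of 15 markers were tested and all 13 had positive differences, with a median of 0.15 and 0 passing, but this single direction rested on E4bp4-/- replicate 1. Without that array 9 of the 13 were negative and 4 positive, with a median of -0.018 and a range of -0.22 to 0.069. Their mean level ranged from 7.0 to 8.50 in E4bp4-/- and from 6.95 to 7.60 in E4bp4+/+ marrow, and the top value was that of E4bp4-/- replicate 1. The 3 markers of lowest p were C1qc at 0.31, Mrc1 at 0.28 and Fcgr1 at 0.08, which were 0.011, 0.030 and 0.069 without that array. On E4bp4-/- replicate 1, whose chain genes were near E4bp4+/+ levels, these markers were thus high. On replicate 2, whose chain genes were also near those levels, the mean of the markers was 7.49, inside the E4bp4+/+ range. Replicates 3 to 6, where H2-Aa was below every E4bp4+/+ array, had marker means of 7.38 or less. These were inside the E4bp4+/+ range too. Replicates 1 and 2 still had the highest marker means of the E4bp4-/- arrays. So they did for conventional dendritic cells, at 7.44 and 7.27 against 7.26 or less. For plasmacytoid dendritic cells they were at 8.07 and 7.89 against 7.77 or less. For B cells they were at 6.48 and 6.44 against 6.26 or less. The class I genes described at the end had the same order, at 10.77 and 10.61 against 10.54 or less. A link to the chain genes was not tested.

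Markers of type 2 innate lymphoid cells, some of which carry class II in mice, were tested for 5 of 8 genes. All 5 differences were negative, with a median of -0.37, and 0 passed adjustment. Il2ra ranged from 5.15 to 5.98 in E4bp4-/- and from 5.68 to 6.57 in E4bp4+/+ marrow, a difference of -0.73 (limma adjusted p = 0.148). Gata3 ranged from 6.16 to 6.97 in E4bp4-/- and from 6.76 to 7.31 in E4bp4+/+ marrow, a difference of -0.64 (0.148). Icos ranged from 5.91 to 6.19 in E4bp4-/- and from 6.28 to 6.60 in E4bp4+/+ marrow, a difference of -0.37 (0.139), without overlap. Gata3 was 6.16 on E4bp4-/- replicate 1 and 6.97 on replicate 2, where H2-Aa was 7.35 and 7.46. The mean level of the 5 genes was 6.05 on replicate 1 and 6.38 on replicate 2, the highest of the E4bp4-/- arrays. The part of these cells was not tested.

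Of the progenitor genes that the depletion should keep, 5 of 6 were tested and all 5 differences were positive, with Flt3 at 0.36, Slamf1 at 0.27 and Kit at 0.19 and 0 passing. Lineage antigens used for the depletion were tested for 4 of 6 genes, with a median difference of 0.20: Ptprc, whose B220 form was targeted, differed by 0.14, Itgam, which encodes CD11b, by 0.30 and Ly6g by 0.27. Without E4bp4-/- replicate 1 these differences were 0.0091, 0.052 and 0.0055, and the median was 0.0073. Klrb1c, which encodes NK1.1, was under the 20th percentile on every array. Itgam reached 8.93 in E4bp4-/- and 7.91 in E4bp4+/+ marrow at its highest.

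**Figure D5:**
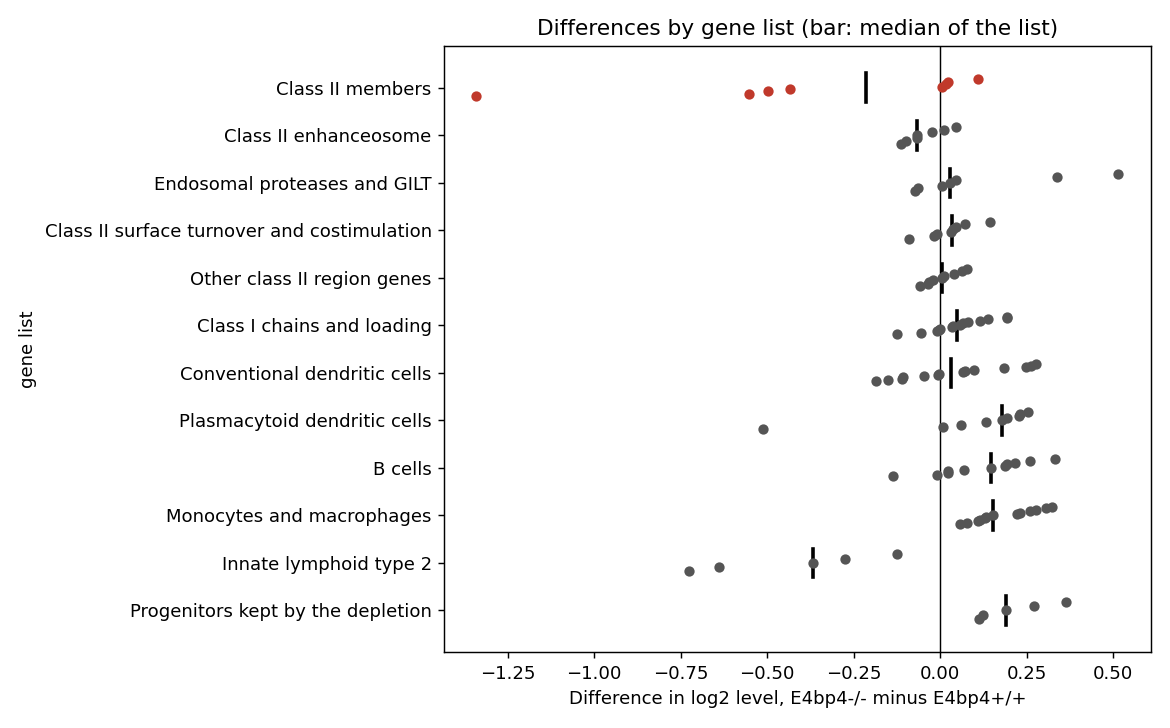
Difference in log2 level, E4bp4-/- minus E4bp4+/+ (horizontal axis), of each tested gene (point) in 12 gene lists (vertical axis), with a bar at the median of each list. The class II genes split into 4 at -1.34 to -0.43 and 4 at 0.0066 to 0.11, the type 2 innate lymphoid list has a median of -0.37, and the monocyte and macrophage list one of 0.15, which is -0.018 without E4bp4-/- replicate 1.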

How the data were processed

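One array per mouse was run, 6 for E4bp4-/- and 6 for E4bp4+/+ marrow, on the GeneChip Mouse Gene 1.0 ST platform. The authors' deposited log2 values come from RMA16 in GeneSpring GX 11, as the series design text states; that they are log2 was inferred from their range, 3.18 to 14.33. The number of arrays limits the precision. The sources used here name no genome build for the array annotation, and raw array files were not analysed here.

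Transcript clusters were tested where 1 or more arrays reached that array's 20th percentile, which kept 29541 of 34760. The fit was limma (lmFit and eBayes, version 3.58.1, R 4.3.3) on genotype alone, with Benjamini-Hochberg adjustment at 0.05, after the design text. Platform annotation gave 1 gene to 21640 clusters, and each gene took its cluster of highest mean. The plan named pooled permutation tests of 45 pairs. Only 28 pairs were possible. The pooled test was run, but within-genotype values are read in its place because the arrays fell apart. Exact p values within E4bp4-/- marrow were also computed and are not given.

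Named genes were the members, Nfil3, the 3 of lowest p in each of 14 other gene lists and the 5 most alike genes under 2 measures. Trgv1, Zbtb46, Itgax, Ms4a1, Fcer2a and Klrb1c were named outside that rule, after their values were seen. The members, lists and tests were chosen with earlier results of these data known. The filter, scaling, trend, weights, replicate number and single arrays were varied. The main fit did not pair samples by replicate number, since the labels do not say whether equal numbers mark a pair. The limma step was tested on simulated data.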

Additional observations from a re-analysis of the deposited data

How the results depend on the processing

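The number of the 8 genes past an adjusted p of 0.05 was 0 in the fits tried, namely no filter, a 50th percentile filter, quantile normalisation, median centring, an intensity trend, array weights, single arrays left out, a block for the replicate number and, added after seeing the data, both arrays numbered 1 left out. H2-Aa was at -1.38 to -1.34 in the fits on all 12 arrays, at -1.45 without both arrays numbered 1 and at -1.56 to -1.17 when single arrays were left out, as were H2-Ab1 at -0.66 to -0.48, H2-Eb1 at -0.48 to -0.39 (adjusted p = 0.116 to 0.287) and Cd74 at -0.68 to -0.37. The median difference of the set was -0.43 with the 50th percentile filter, which removes Ciita, and -0.28 to -0.18 with single arrays left out. With the replicate number as a block it was -0.21, 0 genes passed and the SE of H2-Ab1 was 0.081 in place of 0.16. The sample labels do not say whether equal numbers mark a pair. With genotype means removed, same-numbered arrays correlated at -0.033 to 0.46 over the transcript clusters tested. Of the 6 E4bp4-/- arrays, 3 correlated best with the E4bp4+/+ array of their own number. Whether the numbers pair the samples was not tested. Over the whole table array weights gave 5 calls and single arrays left out 0 to 4. Directions turned for genes near 0. H2-Oa was -0.0098 after quantile normalisation, -0.024 after median centring, -0.013 with array weights and -0.012 without both arrays numbered 1, and -0.079 to 0.082 with single arrays left out. H2-Ob was -0.016 after median centring, -0.0070 with array weights and -0.057 to 0.11 with single arrays left out. Ciita was -0.022 after quantile normalisation, -0.034 after median centring, -0.036 without both arrays numbered 1 and -0.020 to 0.041 with single arrays left out. The cause was not tested. The median correlation of the 28 pairs was 0.43 over all 12 arrays (0.35 to 0.47 with single arrays left out), 0.83 within E4bp4-/- and 0.77 within E4bp4+/+ marrow. No member had another transcript cluster of its own, so that alternative was not run.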

Other observations

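MHC class I, which presents peptides from the cytosol, was followed as 16 genes of its chains, transporter, proteasome and chaperones, of which 14 were tested. Differences, E4bp4-/- minus E4bp4+/+, were positive for 9 and negative for 5, with a median of 0.05, and 0 passed adjustment in limma. Without E4bp4-/- replicate 1, 7 were positive and 7 negative, with a median of -0.0018. Nlrc5, the class I counterpart of Ciita, ranged from 9.88 to 10.07 in E4bp4-/- and from 9.63 to 9.96 in E4bp4+/+ marrow, a difference of 0.19 (limma adjusted p = 0.225). It had 19 transcript clusters, 17 with a positive and 2 with a negative difference, from -0.05 to 0.20. Tap2, a subunit of the peptide transporter, differed by 0.14 (adjusted p = 0.359) and Pdia3, a chaperone of the loading complex, by -0.13 (0.308). H2-T10, a class I-like gene among those most like the class II chain genes from array to array, ranged from 9.14 to 9.63 in E4bp4-/- and from 9.18 to 9.38 in E4bp4+/+ marrow, and its r with their mean level was 0.99 in E4bp4-/- and 0.57 in E4bp4+/+ marrow.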
